A study of Rattus norvegicus with 6 samples.

Results

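The genes followed here build autophagosomes or mark lysosomes, and were measured as RNA in H9c2, a myoblast line derived from embryonic rat heart. They are Ulk1, Becn1, Atg5, Atg7, Map1lc3b, Gabarap, Gabarapl2, Sqstm1, Lamp1 and Tfeb. They were picked by symbol, and each matched 1 row, so the set is 10 of the 24360 gene rows and 41 of the 44501 transcript rows of the deposited tables. The tables identify them as ENSRNOG00000037505 (Ulk1), ENSRNOG00000020513 (Becn1), ENSRNOG00000000322 (Atg5), ENSRNOG00000007486 (Atg7), ENSRNOG00000017905 (Map1lc3b), ENSRNOG00000017417 (Gabarap), ENSRNOG00000019425 (Gabarapl2), ENSRNOG00000003147 (Sqstm1), ENSRNOG00000019629 (Lamp1) and ENSRNOG00000014666 (Tfeb). The comparison is between 2 groups of 3 samples. Rb2 samples were labelled as treated with ginsenoside Rb2, a saponin of ginseng, and Ctrl samples as NC; both carry the genotype label WT. A single protocol text is attached to all 6 samples and gives Rb2 for 48 h, then loss of oxygen and glucose for 4 to 6 h, then 12 h with both restored. It does not say whether Ctrl cells went through the deprivation, and no dose is given in the sources used here. The replicates are not said to be separate cultures, so p-values cover sample-to-sample spread only, and that spread could be technical. All samples come from 1 cell line, so nothing here covers a second line or heart tissue.

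Autophagy encloses cytoplasm in a double membrane, the autophagosome, and delivers it to the lysosome for breakdown. The ULK1 kinase and the lipid kinase complex that holds Beclin 1 start the membrane, the ATG7 and ATG5 conjugation machinery attaches ATG8 family proteins (the LC3 and GABARAP proteins) to it, and cargo receptors such as p62 bind them. TFEB is a transcription factor that switches on lysosomal and autophagy genes through a short palindromic DNA element, the CLEAR element, whose centre is CACGTG. In heart muscle cells autophagy is known to respond to loss and return of oxygen and nutrients. RNA levels do not measure the lipidated proteins or the flow of cargo.

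The promoters are shown first because the number of CACGTG elements differs among these genes. RefSeq (build GRCr8) gives a window of 250 bases before to 50 after a start site for 9 of the 10 genes, all but Becn1. CACGTG, which reads the same on both strands, was present in 2 of the 9 windows (22.2%), those of Lamp1 and Atg5. It was present in 21 of 124 windows (16.9%) of other autophagy and lysosome genes and in 6.42% of all 33469 windows. Lamp1 held 5 copies, and it is the 1 window among all 33469 with at least 5; at least 2 copies were found in 0.52%. The 250 bases before the Lamp1 start (chr16:83075064-83075313, minus strand) and the 60 bases before the Atg5 start (chr20:49380775-49380834, plus strand) follow, with CACGTG in capitals.
Lamp1: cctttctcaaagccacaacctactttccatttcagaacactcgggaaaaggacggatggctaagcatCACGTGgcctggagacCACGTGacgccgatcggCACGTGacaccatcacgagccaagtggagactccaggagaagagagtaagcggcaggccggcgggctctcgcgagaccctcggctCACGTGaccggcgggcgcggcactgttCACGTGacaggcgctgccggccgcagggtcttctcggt
Atg5: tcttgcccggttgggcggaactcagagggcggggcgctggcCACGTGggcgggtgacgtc
The copies in Lamp1 begin 183, 167, 150, 65 and 38 bases before the start, and each has the flanking T or A of the longer form TCACGTG on at least 1 strand. The Atg5 copy does not have that flank. TCACGTG on either strand, which contains CACGTG, was present in 3.20% of all windows and in 19 of 124 windows (15.3%) of other autophagy and lysosome genes. The looser antioxidant response motif TGANNNNGC, searched on both strands, was present in 6 of the 9 windows. It was present in 46.8% of the windows of other autophagy and lysosome genes and in 40.5% of all. A match is a description of the letters and not a bound site.

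Total counts ran from 5193077 to 5570308 in Rb2 and from 5787587 to 8793390 in Ctrl, and a count of 3, the most that a count of 0 allows, was 0.341 to 0.578 CPM (counting error only). Ctrl replicate 1, the deepest library, stood apart: in 248 of 11551 tested genes its value was over 2 times the highest of the other 5 libraries, against 0 to 6 genes for any other library. Of the core genes 1 is among the 248, Lamp1, and of the other pathway genes listed below 0 are. Ctrl replicate 1 stood apart on the low side too. In 127 genes its value was over 2 times below the lowest of the other 5, against 34 to 55 genes for any other library. Pathway genes are among these 127, such as Atp6ap2 (9.34 CPM, with 27.3 and 26.4 CPM in Ctrl replicates 2 and 3). Another is Atp6v1h (11.9 CPM, with 28.2 and 29.4 CPM). The label calls the cells embryonic cardiomyocytes. Of 10 cardiac muscle markers 8 had a row and 1, Tnnt2, passed the filter on low counts, while Actc1 was at 0 in every library. The cardiac list sum, nearly all of it Tnnt2, was 44.7 to 51.1 CPM in Rb2 and 49.6 to 63.8 CPM in Ctrl. Of 10 skeletal muscle markers 9 had a row and 4 passed, Myod1, Myog, Des and Acta1, with a list sum of 42.4 to 48.02 CPM in Rb2 and 35.4 to 46.3 CPM in Ctrl; 5 of 8 fibroblast markers passed. Of the fibroblast markers, Dcn was at 0 and Lum and Pdgfra had at most 1 count in any library. Summed fibroblast markers were at 5194 to 5631 CPM in Rb2 and 4841 to 5145 CPM in Ctrl. The 6 smooth muscle markers summed to 1682 to 1712 CPM in Rb2 and 1945 to 2192 CPM in Ctrl. Neither sum overlaps between the groups, no marker was called, and their part in the results below was not tested. Leukocyte and macrophage markers summed to 27.04 to 31.86 CPM in Rb2 and 21.2 to 32.1 CPM in Ctrl, with Ptprc at 0. Nearly all of that sum was Cd14, the only marker of the list past the filter (mean 27.6 CPM in Rb2 and 26.1 CPM in Ctrl).

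None of the 10 core genes passed the test between Rb2 and Ctrl. All 10 passed the filter on low counts, and with edgeR's quasi-likelihood test adjusted over all genes 0 were higher and 0 lower in Rb2, where 2.70% of all genes tested were called (1.90% higher and 0.805% lower). An unadjusted p under 0.05 was seen for 3, Becn1, Gabarap and Sqstm1, against 20.0% of all genes. DESeq2, limma-voom and limma on the deposited CPM also called 0, though DESeq2 gave no adjusted p for Ulk1 and Tfeb. Limma-voom with sample quality weights called 1 higher and 2 lower, the same 3 genes, where it called 13.2% of all genes. The median log2 fold change was -0.05 over the 10 genes and -0.02 over all genes tested. Without Ctrl replicate 1, where 7.53% of all genes were called, these 3 genes passed as well. In 5 of the 10 the groups did not overlap, against 27.2% of all genes: 2 had every Rb2 sample above every Ctrl sample (15.0% of all genes) and 3 had the reverse (12.2%).

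**Figure D1:**
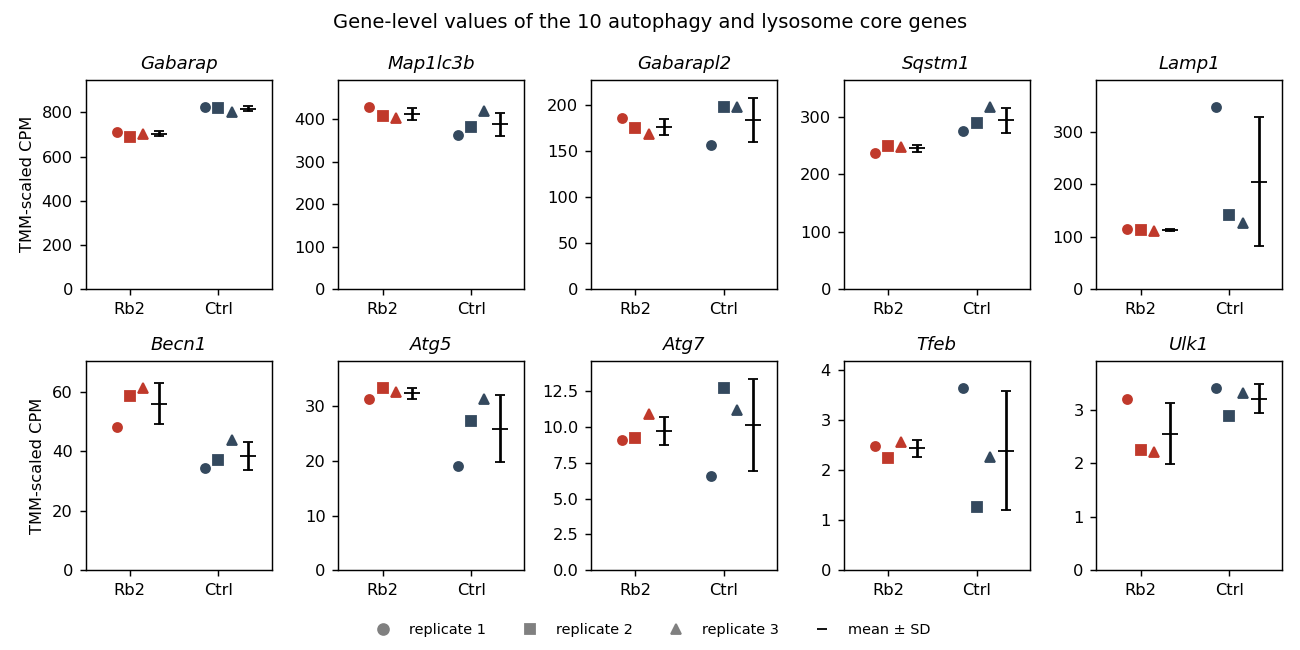
TMM-scaled CPM (y axis, from 0, own scale per gene) of the 10 core genes in Rb2 and Ctrl, genes ordered by level per kilobase; points are samples, with the replicate number as the shape, and bars are mean ± SD (n = 3). Gabarap, Sqstm1 and Lamp1 lie lower in every Rb2 sample and Becn1 and Atg5 higher, and Ctrl replicate 1 lies far from the other Ctrl samples for Lamp1, at 348 CPM.

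Among the genes that start the autophagosome, Becn1 was the closest to a call. Its values, in CPM scaled by TMM (trimmed mean of M-values, which sets libraries on a common scale), were 48.1, 58.6 and 61.1 in Rb2 and 34.3, 37.1 and 43.7 in Ctrl. Every Rb2 sample lay above every Ctrl sample. The means were 55.9 ± 6.91 CPM in Rb2 and 38.4 ± 4.81 CPM in Ctrl (SD, n = 3 each), with a log2 fold change of 0.55 (SE 0.15, edgeR adjusted p = 0.0766). Without Ctrl replicate 1 Becn1 passed the threshold (0.49, adjusted p = 0.0377), and likewise without Ctrl replicate 3 (0.66, adjusted p = 0.0442), where 5.36% of all genes were called. Over 21 alternatives its adjusted p ran from 0.0145 to 0.300, with a fold change above 0 in each. Ulk1, the kinase that starts the process, was counted 18, 13 and 12 times in Rb2 and 28, 16 and 19 times in Ctrl. Its level was 2.55 ± 0.56 CPM in Rb2 and 3.20 ± 0.27 CPM in Ctrl (log2 fold change -0.33, SE 0.28, adjusted p = 0.539), with overlapping groups.

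In the conjugation machinery Atg5 stood higher in Rb2 without passing the test. Atg5, part of the complex that carries ATG8 proteins to the membrane, was at 31.3, 33.3 and 32.6 CPM in Rb2 and 19.2, 27.3 and 31.3 CPM in Ctrl. The groups do not overlap, but the lowest Rb2 and highest Ctrl samples differ by under 0.1 CPM. The log2 fold change was 0.33 (SE 0.18, adjusted p = 0.352), and it was 0.16 without Ctrl replicate 1. Atg7, the activating enzyme of both conjugation systems, was at 9.08, 9.19 and 10.9 CPM in Rb2 and 6.55, 12.7 and 11.2 CPM in Ctrl. All Rb2 values fall inside the Ctrl range, and the log2 fold change was -0.05 (SE 0.26, adjusted p = 0.942).

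The ATG8 genes differed in how their Rb2 and Ctrl values lay. Gabarap, which acts mainly in the later maturation of autophagosomes, was at 713, 691 and 704 CPM in Rb2 and 824, 821 and 804 CPM in Ctrl. The groups are clear of each other and each is tight, with coefficients of variation of 1.58% in Rb2 and 1.32% in Ctrl. The log2 fold change was -0.22 (SE 0.07, adjusted p = 0.133); without Ctrl replicate 1 it was -0.19 and passed (adjusted p = 0.0489). Map1lc3b, which encodes LC3B, the protein most used to mark autophagosomes, was at 429, 408 and 402 CPM in Rb2 and 363, 381 and 418 CPM in Ctrl. Its groups overlap (log2 fold change 0.09, SE 0.09, adjusted p = 0.590), and the sign turned under an offset for gene length (-0.03). Gabarapl2, also called GATE-16, was at 186, 175 and 168 CPM in Rb2 and 156, 198 and 198 CPM in Ctrl. Ctrl replicate 1 was the lowest of the 6 samples and the other 2 Ctrl samples the highest (log2 fold change -0.06, SE 0.11, adjusted p = 0.806), and with library size as the only scaling the sign turned (0.05).

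Sqstm1, which encodes the cargo receptor p62, was lower in each Rb2 sample. Its values were 237, 250 and 247 CPM in Rb2 and 276, 288 and 317 CPM in Ctrl, with means of 245 ± 6.62 CPM in Rb2 and 294 ± 21.1 CPM in Ctrl (SD, n = 3 each). The log2 fold change was -0.26 (SE 0.09, adjusted p = 0.136). Without Ctrl replicate 1 it was -0.29 and passed the threshold (adjusted p = 0.0216), while with library size as the only scaling it was -0.15 (adjusted p = 0.416). That scaling moved the median of all genes from -0.02 to 0.10.

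Lamp1, a heavily glycosylated protein of the lysosomal membrane, had the largest fold change of the 10 and the widest spread. It was at 115, 112 and 111 CPM in Rb2 and 348, 141 and 127 CPM in Ctrl. Rb2 samples lay within 5 CPM of each other and below all Ctrl samples, and Ctrl replicate 1 was 2.46 times the next highest library. With all samples the log2 fold change was -0.87 (SE 0.41, adjusted p = 0.310), and without Ctrl replicate 1 it was -0.23 (adjusted p = 0.0884). Lamp2, its companion on the same membrane, chosen here after its values were seen, was at 139, 134 and 142 CPM in Rb2 and 50.7, 97.1 and 100 CPM in Ctrl. Here Ctrl replicate 1 was the lowest sample, the reverse of Lamp1. The Lamp2 log2 fold change was 0.75 (SE 0.23, adjusted p = 0.128), and without Ctrl replicate 1 it was 0.50 and called (adjusted p = 0.0023). With all samples Lamp2 was called by DESeq2 (0.74, adjusted p = 0.0261) and by limma-voom with sample quality weights (0.57, adjusted p = 0.0143). The other 18 of 21 alternatives did not call it.

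Tfeb, the transcription factor, was among the least abundant of the 10. It had 14, 13 and 14 counts in Rb2 and 30, 7 and 13 counts in Ctrl, or 2.44 ± 0.17 CPM in Rb2 and 2.39 ± 1.19 CPM in Ctrl (SD, n = 3 each). The Rb2 samples sit inside the Ctrl range (log2 fold change -0.03, SE 0.38, adjusted p = 0.977), and without Ctrl replicate 1 the fold change was 0.47 (adjusted p = 0.530).

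**Figure D2:**
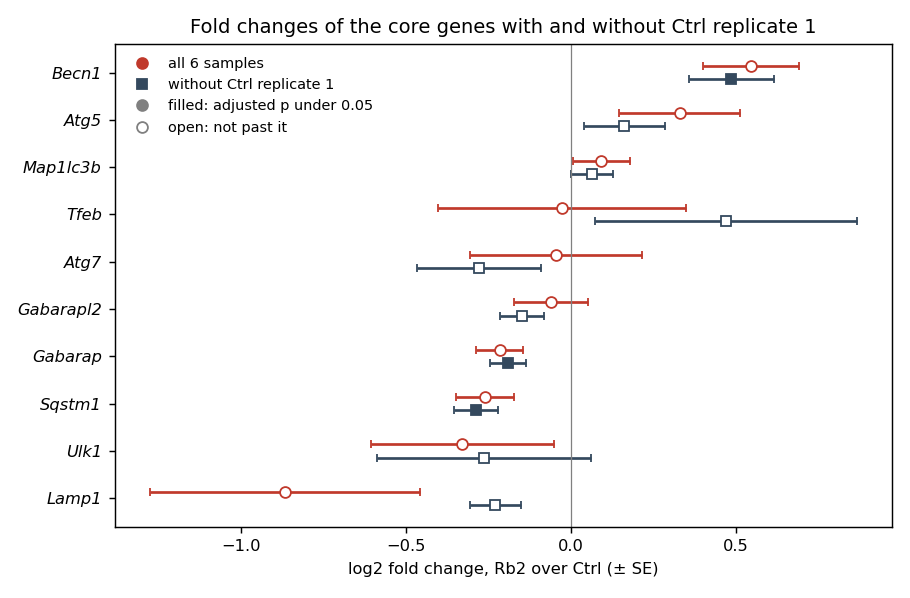
Log2 fold change of Rb2 over Ctrl (x axis, ± SE, edgeR) for the 10 core genes with all 6 samples and without Ctrl replicate 1; filled symbols passed an adjusted p of 0.05. Becn1, Gabarap and Sqstm1 pass without that library, Lamp1 moves from -0.87 to -0.23, and Tfeb moves from -0.03 to 0.47.

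The within-group spread of the core genes was compared as the coefficient of variation, with no test. It was 1.58% to 12.4% in Rb2 for 9 of the genes and 22.01% for Ulk1, and 1.32% to 60.3% in Ctrl. The widest in Ctrl were Lamp1 (2.01% in Rb2 and 60.3% in Ctrl), Tfeb (6.86% in Rb2 and 49.8% in Ctrl), Atg7 (10.3% in Rb2 and 31.4% in Ctrl) and Atg5 (3.05% in Rb2 and 23.8% in Ctrl). Ctrl replicate 1 was the highest of all samples for Lamp1 and Tfeb and the lowest for Atg7 and Atg5. Counts were low for Tfeb (7 to 30 per sample) and Ulk1 (12 to 28), and the part of counting error in their spread was not tested. Ulk1 was wider in Rb2, with 8.5% in Ctrl, and Becn1 (12.4% in Rb2 and 12.5% in Ctrl) and Gabarap were close.

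The levels of the 10 genes, as the mean of all 6 samples in TMM-scaled CPM per kilobase of the deposited gene length, spanned 847 for Gabarap to 0.589 for Ulk1. The order was Gabarap, Map1lc3b (145), Gabarapl2 (111), Sqstm1 (67.8), Lamp1 (55.6), Becn1 (22.3), Atg5 (12.6), Atg7 (3.24), Tfeb (0.954) and Ulk1. Neighbours whose sample ranges overlap are Sqstm1 with Lamp1 and Tfeb with Ulk1. In every gene but Ulk1 the deposited length exceeds each of the gene's listed transcripts, with 3970 bases for Sqstm1 and 2755 for Map1lc3b. Per kilobase of transcript length weighted by counts, Sqstm1 was at 160, above Gabarapl2 at 113, and no other place in the order changed. On that length Map1lc3b was at 219 and Lamp1 at 77.9. The receptor and ATG8 genes were thus far above the kinase, the conjugation enzymes and the transcription factor. Dividing by length takes the reads to be short, as the labelled kit gives, and this was not tested.

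The share of each ATG8 gene in the family's RNA was compared next, and no difference passed the test. This share of the summed counts per kilobase of deposited gene length needs no scaling between libraries. The sum runs over Map1lc3a, Map1lc3b, Gabarap, Gabarapl1 and Gabarapl2. Map1lc3b held 13.3%, 13.0% and 12.7% in Rb2 and 10.1%, 10.5% and 11.6% in Ctrl, with no overlap. The means were 13.0% ± 0.28 in Rb2 and 10.7% ± 0.78 in Ctrl (SD, n = 3 each; exact two-sided permutation p = 0.1, which did not pass and is the smallest that 3 against 3 allows; 0.25 adjusted over the 5 genes). Gabarap held 67.9% ± 0.50 in Rb2 and 69.5% ± 0.89 in Ctrl, also without overlap (exact permutation p = 0.1). The shares of the other 3 genes overlapped. Both other family members, LC3A and GABARAPL1 by protein, were at a lower level in Rb2 without a call: Map1lc3a had 80.8 ± 1.18 CPM in Rb2 and 105 ± 15.7 CPM in Ctrl (log2 fold change -0.38, adjusted p = 0.123) and Gabarapl1 60.8 ± 8.68 CPM in Rb2 and 78.3 ± 7.89 CPM in Ctrl (-0.36, adjusted p = 0.175).

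**Figure D3:**
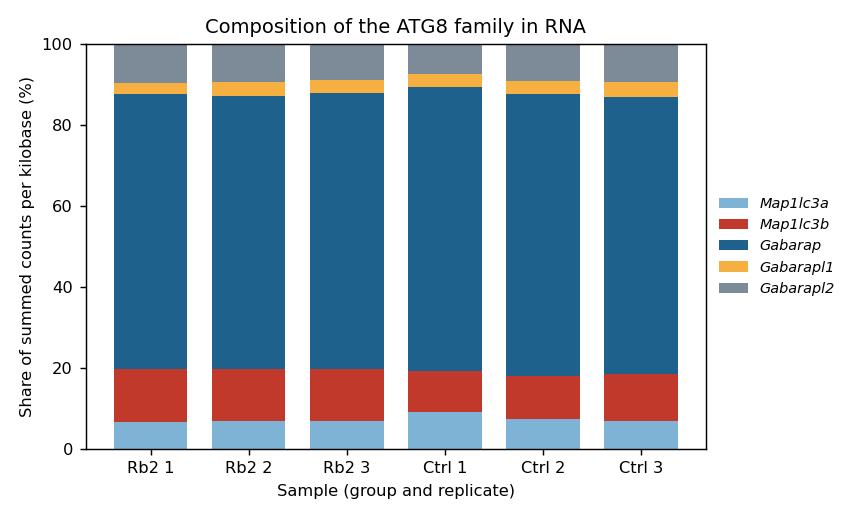
Share of each ATG8 family gene in the summed counts per kilobase of deposited gene length (y axis, percent) in each sample (x axis, Rb2 replicates 1 to 3 and Ctrl replicates 1 to 3). On this length Gabarap takes over 67% in every sample, and Map1lc3b takes 12.7% to 13.3% in Rb2 and 10.1% to 11.6% in Ctrl.

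Transcript tables gave these genes 41 transcripts, 14 known and 27 new models; 36 had a count and 21 passed the filter. In 6 genes the most abundant transcript was a new model, and in 4 (Gabarap, Gabarapl2, Becn1 and Ulk1) a known one. For Map1lc3b the new model ONT.8829.1 held 98.29% to 99.04% of the counts and the 3 known transcripts 1.09% on average. Sqstm1 spread over 11 transcripts, led by ONT.3427.2 with 60.8% ± 1.22 in Rb2 and 60.2% ± 2.36 in Ctrl (SD, n = 3) and followed by ONT.3427.10 with 17.7% ± 3.04 in Rb2 and 15.6% ± 2.70 in Ctrl. The shares of both models overlapped between the groups.

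No transcript of the core genes was called with edgeR, where 0 of 16679 transcripts were called over the whole table (0%); 5 of the 21 had an unadjusted p under 0.05, against 13.8% of all transcripts. DESeq2, which called 4.21% of the 8257 transcripts it gave an adjusted p, called 2 of them, Becn1-206 (log2 fold change 0.62, adjusted p = 0.0453) and Gabarap-201 (-0.20, adjusted p = 0.0365). The main Becn1 transcript had 243, 313 and 323 counts in Rb2 and 269, 205 and 185 counts in Ctrl, from libraries of unequal depth. Scaled, every Rb2 sample lay above every Ctrl sample. The second, Becn1-201, had 27, 25 and 9 counts in Rb2 and 14, 0 and 65 counts in Ctrl. Ctrl replicate 3 was the lowest Ctrl sample for Becn1-206 (32.4 CPM) and the highest for the gene (43.7 CPM). Usage, meaning how a gene's counts divide among its transcripts, could be tested in 6 of the core genes with diffSpliceDGE. It was called in 0 of them, where 0.417% of 3361 genes were called. An unadjusted p under 0.05 was seen in 1 of them, Gabarap, against 3.36% of all genes (edgeR adjusted p = 1.00). There the second transcript, the 175-base model ONT.2678.3, had 20, 13 and 29 counts in Rb2 and 251, 62 and 23 counts in Ctrl, so that its high value is again in Ctrl replicate 1.

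In some genes the model that held the counts differed between samples. Tfeb-201 had 14, 13 and 0 counts in Rb2 and 18, 0 and 0 counts in Ctrl. ONT.18337.3, the other Tfeb model, had 0, 0 and 14 counts in Rb2 and 12, 7 and 13 counts in Ctrl, so 5 of the 6 samples gave all counts to 1 model. In Atg5, ONT.10740.2 had 56 counts in Rb2 replicate 1 and 0 in the other 5 samples, and ONT.10740.3, a model of the same length (2156 bases), had its lowest count, 61, in that sample. In Lamp1, by contrast, the gene total was itself high in Ctrl replicate 1, and the excess lay in ONT.7587.2, with 554, 433 and 537 counts in Rb2 and 2630, 571 and 581 counts in Ctrl. How reads were given to transcripts is not given in the sources used here, and its part in these counts was not tested.

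**Figure D4:**
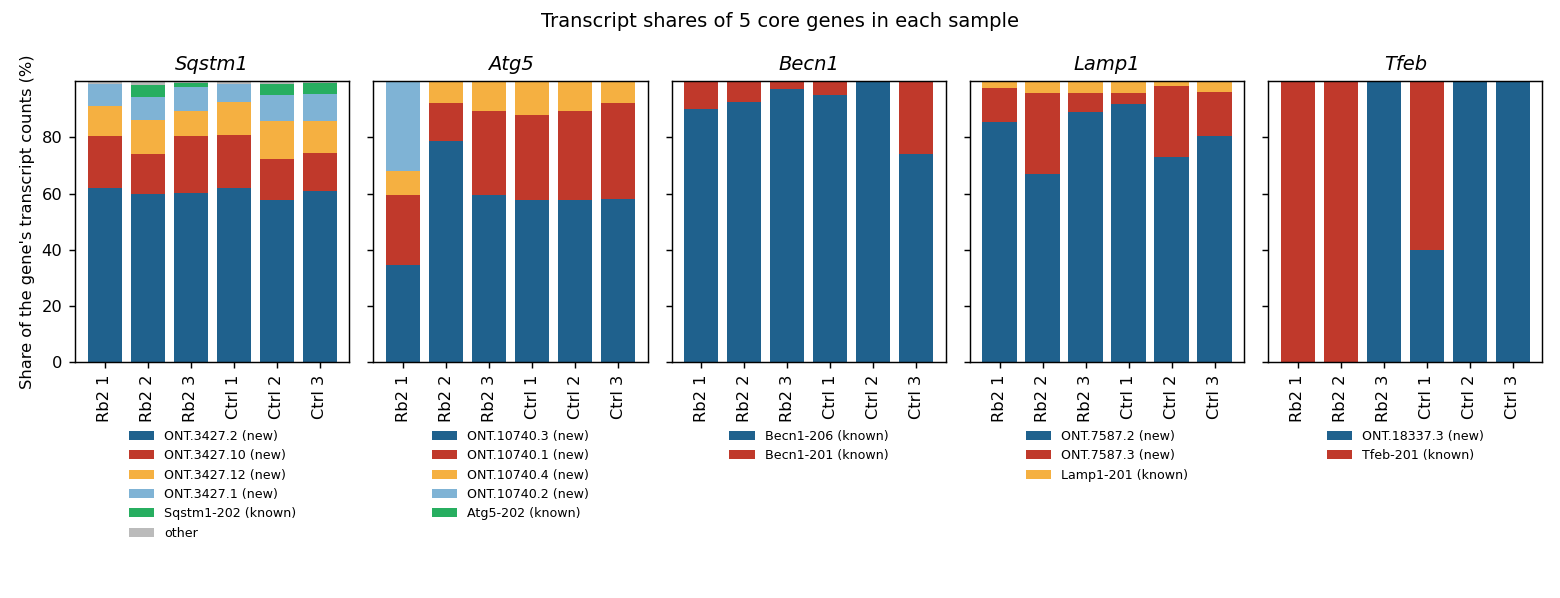
Share of each transcript in the counts of its gene (y axis, percent) for Sqstm1, Atg5, Becn1, Lamp1 and Tfeb in each sample (x axis); up to 5 transcripts per gene are coloured and the rest are grey. Sqstm1 keeps ONT.3427.2 near 60% throughout, while Tfeb gives 100% to 1 model in 5 of 6 samples.

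Of the wider pathway, 149 other genes were listed by role, 142 had a row and 120 were tested. In Rb2 3 rose and 2 fell, and 115 did not pass; their median log2 fold change was -0.02, as for all genes tested, and 5 of 120 is read against 2.70% called over all genes. Tax1bp1, a receptor for ubiquitin-tagged cargo, was at 31.7, 35.9 and 31.8 CPM in Rb2 and 13.6, 15.5 and 20.6 CPM in Ctrl (log2 fold change 1.00, SE 0.18, edgeR adjusted p = 0.0318). Sec62, a translocon protein of the endoplasmic reticulum that also serves as a receptor for its autophagy, was at 35.9, 33.4 and 36.2 CPM in Rb2 and 19.5, 20.6 and 23.6 CPM in Ctrl (0.73, SE 0.14, adjusted p = 0.0365). Both are roughly level within Rb2 and clear of Ctrl. Atg4c, a protease that trims ATG8 proteins, had the largest rise and the lowest level, with 3.15 ± 0.31 CPM in Rb2 and 1.05 ± 0.21 CPM in Ctrl (SD, n = 3; 1.59, SE 0.32, adjusted p = 0.0404). Atg4c had 16, 20 and 17 counts in Rb2 and 7, 7 and 6 counts in Ctrl. Atg3, the enzyme that joins ATG8 proteins to lipid, was at 141 ± 9.27 CPM in Rb2 and 108 ± 6.00 CPM in Ctrl and did not pass (0.39, adjusted p = 0.0682); it is named here after its values were seen.

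Both genes that fell act on mTORC1, the kinase complex that restrains autophagy. Ddit4, a stress-induced inhibitor of mTORC1, was at 75.1, 58.8 and 79.8 CPM in Rb2 and 155, 121 and 103 CPM in Ctrl (log2 fold change -0.83, SE 0.17, edgeR adjusted p = 0.0430). Flcn, which encodes folliculin, a regulator of the Rag GTPases at the lysosome that also governs TFEB, was at 12.6, 14.04 and 12.9 CPM in Rb2 and 21.8, 20.6 and 20.8 CPM in Ctrl (-0.68, SE 0.15, adjusted p = 0.0479). Among 21 tested genes of mTORC1, AMPK and lysosomal nutrient sensing these 2 were called lower (0.805% of all genes were) and 0 higher (1.90% of all genes were), with a list median of -0.11. With 1 library left out, Tax1bp1, Sec62, Atg4c and Ddit4 stayed called in 2 of the 6 fits, those without Ctrl replicate 1 or 3, and Flcn in 1, without Ctrl replicate 1; in the others the adjusted p was 0.0532 to 0.207. In the 4 fits without Ctrl replicate 2 or an Rb2 replicate, at most 25 genes were called higher and 14 lower over the whole table. Over those 6 fits the log2 fold change was 0.89 to 1.20 for Tax1bp1, 0.69 to 0.83 for Sec62, 1.45 to 1.74 for Atg4c, -0.94 to -0.63 for Ddit4 and -0.72 to -0.63 for Flcn. Limma-voom ended the calls of Atg4c (1.56, adjusted p = 0.0508), Ddit4 (-0.83, 0.0542) and Flcn (-0.68, 0.0544), as did restriction to known genes (0.0533, 0.0558 and 0.0519). The length offset ended those of Atg4c (1.47, 0.0512) and Ddit4 (-0.90, 0.0525). Atg4c was also removed by a filter of at least 5 CPM in at least 3 samples, and DESeq2 gave it no adjusted p. Flcn was also not called with library size alone (adjusted p = 0.0680), no filter (0.0608), or limma on the deposited CPM plus 1 (0.0621) or plus 0.1 (0.0631), and Ddit4 was not called on the deposited CPM plus 0.1 (0.0527). Tax1bp1 and Sec62 stayed called in these settings with all 6 samples. Each lost its call in 6 of 21 alternatives: the 4 fits above, a fit with the replicate block and an adjusted p of 0.01.

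In the other lists 0 of the tested genes were called. These were the ULK1 complex (2 tested), the lipid kinase complex and its regulators (7), ATG9 and lipid transfer (8), the rest of the ATG8 family (2), fusion with the lysosome (11), MiT/TFE factors (1), lysosomal membrane proteins (9), lysosomal hydrolases and activators (26) and the vacuolar ATPase (16). The lysosomal lists had list medians of -0.05 for membrane proteins, -0.02 for hydrolases and 0.00077 for the proton pump. Around that median the 16 genes of the pump ran from -0.55 to 0.70, with 5 at an unadjusted p under 0.05 (20.0% of all genes) and 9 whose groups did not overlap (27.2% of all genes). Of those 9, 5 lay above Ctrl in every Rb2 sample, such as Atp6v1a (0.70, adjusted p = 0.134), and 4 below, such as Atp6v0b (-0.55, adjusted p = 0.0745); these 2 genes are named after their values were seen. The most abundant genes of the lysosomal lists did not pass the test: Ctsb, a lysosomal protease, was at 638 ± 25.9 CPM in Rb2 and 627 ± 125 CPM in Ctrl (log2 fold change 0.03, adjusted p = 0.940), and Cd63, a tetraspanin of late endosomes, was at 3019 ± 60.3 CPM in Rb2 and 3312 ± 120 CPM in Ctrl (-0.13, adjusted p = 0.313). Atp6v1g1 of the proton pump had -0.07 (adjusted p = 0.663). The other lists' most abundant members, Atg101 (-0.37), Vmp1 (0.38), Wdr45b (0.35), Vamp8 (-0.19) and Tfe3 (-0.11), did not pass either. Among tested pathway and core genes with a RefSeq window, the 16 with TCACGTG, Lamp1 included, had a median log2 fold change of -0.06 and the 93 without it -0.04.

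**Figure D5:**
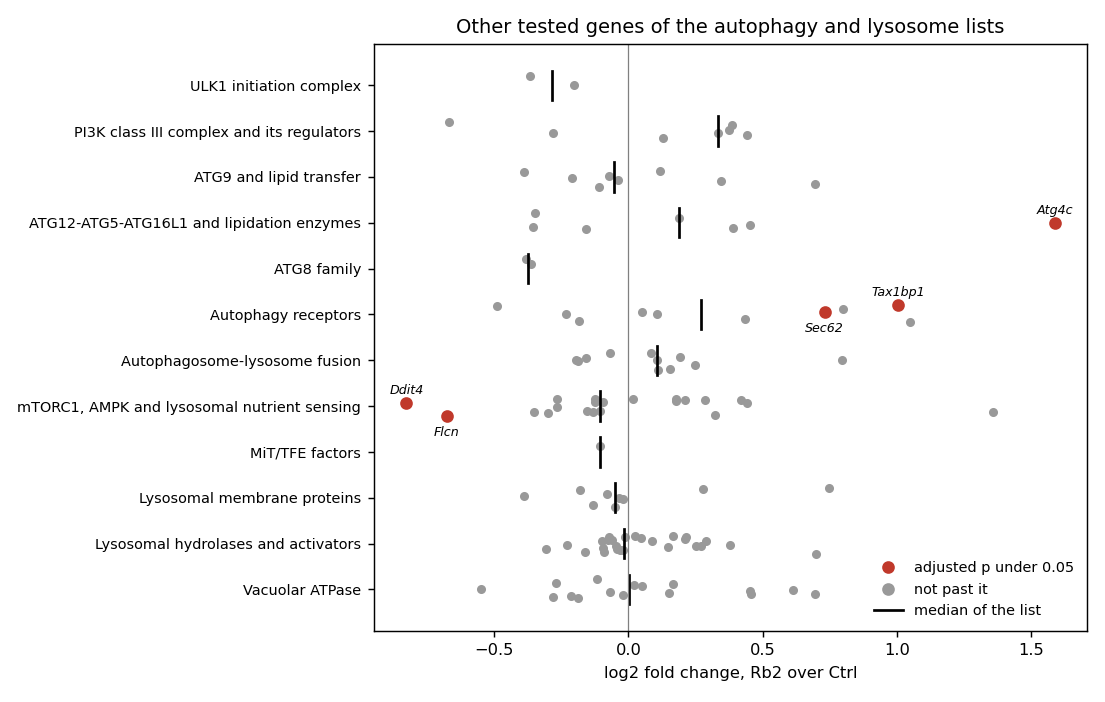
Log2 fold change of Rb2 over Ctrl (x axis) of the 120 other tested autophagy and lysosome genes by list (y axis); red points passed an edgeR adjusted p of 0.05 and black bars are list medians. Atg4c, Tax1bp1 and Sec62 lie on the right and Ddit4 and Flcn on the left, with the medians of the lysosomal lists near 0 and single genes on both sides.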

How the data were processed

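RNA-seq of 3 Rb2 and 3 Ctrl samples was analysed from deposited whole-number counts per gene and per transcript. The kit is a short-read mRNA kit per the labels' protocols, while the names of the new models begin with ONT. Levels and shares per kilobase take the reads to be short, which was not tested. Matching tables of CPM were deposited too, with each value equal to the count scaled by its column total (largest difference 4.9e-11). The submitters' processing notes list HISAT2, DESeq2 and mm10 without roles, while known rows carry rat identifiers. For the counter, the strand setting and the builder of the new models, nothing is given in the sources used here. Beyond the 6 samples, 18 per-sample columns in each table could not be matched and were left out.

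Counts were fitted with edgeR 4.0.16 in R 4.3.3 (TMM, filterByExpr, robust quasi-likelihood), with Benjamini-Hochberg adjustment over all features and a threshold of 0.05. Usage was tested with diffSpliceDGE. Alternatives used DESeq2 1.42.0, limma 3.58.1 and those in the closing section. Fits were tested on simulated data. SE is the fold change over the root of its F. All core genes were named. From each other list, the text names up to 4 called genes by p, or else the one with the highest CPM. Members and lists were chosen with earlier results of these data known. Lists were matched by symbol; 7 symbols matched no row. Replicate numbers are not stated to pair the samples, and the main fit used no pairing.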

Additional observations from a re-analysis of the deposited data

How the results depend on the processing

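Pairs of counts give calls higher, then lower, in Rb2. Of the core genes (0 and 0 as reported) limma-voom with sample quality weights called 1 and 2, and 1 was higher with no filter on low counts or at an adjusted p of 0.1. Of the other pathway genes (3 and 2) the counts outside 1.5 times were 5 and 1 with scaling by library size alone and with limma on log2(deposited CPM + 1), 5 and 0 on log2(deposited CPM + 0.1), 4 lower with DESeq2, 0 lower with limma-voom and with known genes only, 9 and 10 with quality weights, 1 lower with the length offset, 6 and 5 at 0.1 and 0 and 0 at 0.01. Over all genes (219 and 93) they were 135 and 92 with upper-quartile factors, 463 and 80 with library size alone, 469 and 81 and then 385 and 64 on the deposited CPM with 1 and 0.1 added, and 96 and 83 with the length offset. They were 386 and 150 with no filter, 122 and 55 with limma-voom, 928 and 595 with quality weights, 83 and 30 with known genes only, 574 and 250 at 0.1 and 4 and 13 at 0.01. With 1 library left out, core genes called were 0 to 1 and 0 to 2, other pathway genes 0 to 6 and 0 to 6, and all genes 0 to 605 and 3 to 291; the highest were without Ctrl replicate 1, then without Ctrl replicate 3 (433 and 211), and without any 1 of the other 4 libraries at most 25 and 14 of all genes passed. Transcripts of core genes called were 0 as reported and 2 with DESeq2. A fit with the replicate block called 12 and 21 of all genes and 0 and 0 pathway genes. The labels do not say whether the numbers pair samples. Deviations of samples with the same number correlated at -0.067, -0.061 and -0.0067, and those with different numbers at -0.12 to 0.16. With 3 samples per group these values cannot settle whether samples were paired. Fold changes that changed sign were those of genes close to 0: Gabarapl2 (0.050 with library size alone, 0.058 and 0.059 on the deposited CPM plus 1 and plus 0.1, -0.15 to 0.0089 with 1 library left out), Atg7 (0.066, 0.087 and 0.10 in the same 3, 0.032 with limma-voom, -0.28 to 0.15), Tfeb (0.087, 0.16, 0.25, 0.069, 0.55 with quality weights, 0.053 with the replicate block, -0.30 to 0.47) and Map1lc3b (-0.028 with the length offset). The cause was not tested. The Map1lc3b share of the ATG8 family, which did not pass (exact permutation p = 0.1, adjusted p = 0.25), differed by 2.25 percentage points (Rb2 minus Ctrl), and by 1.92 to 4.16 over its alternatives, one of which, per weighted transcript length (2.84), was added after seeing the data.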
